A study of Mus musculus with 8 samples.

Results

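Reactive astrocyte genes are transcripts that astrocytes raise after injury, inflammation or loss of neighboring cells. The 10 described here, Gfap, Vim, Serpina3n, Lcn2, Timp1, Cd44, Osmr, S1pr3, Steap4 and Srgn, were taken by gene symbol from a deposited RNA-seq table of mouse brainstem (BS) that held 24081 unique genes. All 10 were found, and all 10 were among the 15123 genes kept for testing, those averaging 10 or more normalized counts over the libraries. Each member also did so within both groups. A normalized count is the number of reads of a gene divided by the size factor of its library. BS came from 4 KI mice and 4 control mice of the C57BL/6 strain, untreated and, by the labels, collected at postnatal day 19, while the methods also allow mice 1 day younger. KI mice carried one floxed hPDGFRA allele (hPDGFRA fl/+), a human PDGFRA cDNA behind a loxP-flanked stop in the Rosa26 locus and under the CAG promoter. Control mice lacked hPDGFRA. Mice of both groups also carried Nestin Tv-a, p53 fl/fl and the Olig2-Tv-a/Cre driver, so that p53 was deleted in Olig2-progenitors of the controls too, and neither group kept p53 there. The Cre driver acts in Olig2-progenitors and was not aimed at mature astrocytes. Each library was made from whole BS tissue, in which more cells of a type and more RNA per cell cannot be told apart.

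Astrocytes respond to damage by enlarging their processes and filling them with the intermediate filament proteins GFAP and vimentin. Cytokines of the interleukin-6 family act through receptors that share gp130 and through the transcription factor STAT3, a main route to Gfap in astrocytes, while interleukin-1 and tumor necrosis factor act through NF-kappaB. Genes that rise in rodent astrocytes after both endotoxin and stroke are called pan-reactive, those that rise mainly after endotoxin are called A1, and those that rise mainly after stroke are called A2. Srgn belongs to the A1 list and the other 9 to the pan-reactive list of 13 genes.

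Promoter sequence is given for 4 members, Srgn and those whose windows held the STAT or AP-1 letters given below. The windows are RefSeq promoters of build GRCm38.p6, each 300 bases long, 250 before the start of transcription and 50 from it, printed 5′ to 3′ on the strand of the gene. Gfap (chr11:102897151-102897450, minus strand) and Steap4 (chr5:7960222-7960521, plus strand) hold a STAT dimer site, TTCNNNGAA, in capitals, with its first base 2 bases before the start in Gfap and 116 before it in Steap4. Osmr (chr15:6874264-6874563, minus strand) holds an AP-1 site, TGANTCA, in capitals. Srgn (chr10:62527396-62527695, minus strand) is shown because it was the member whose level passed the test below, and neither motif occurs in its window.
Gfap: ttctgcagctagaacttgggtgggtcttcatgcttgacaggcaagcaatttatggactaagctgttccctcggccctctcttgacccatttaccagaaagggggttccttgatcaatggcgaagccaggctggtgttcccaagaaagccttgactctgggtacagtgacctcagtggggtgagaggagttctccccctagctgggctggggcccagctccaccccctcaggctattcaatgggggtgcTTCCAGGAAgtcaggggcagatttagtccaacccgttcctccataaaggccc
Steap4: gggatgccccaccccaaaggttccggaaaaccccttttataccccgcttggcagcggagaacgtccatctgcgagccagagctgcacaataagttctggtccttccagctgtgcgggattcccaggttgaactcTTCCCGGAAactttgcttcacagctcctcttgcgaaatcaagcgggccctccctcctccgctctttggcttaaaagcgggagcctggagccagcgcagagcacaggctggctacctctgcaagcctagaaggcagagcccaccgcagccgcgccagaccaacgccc
Osmr: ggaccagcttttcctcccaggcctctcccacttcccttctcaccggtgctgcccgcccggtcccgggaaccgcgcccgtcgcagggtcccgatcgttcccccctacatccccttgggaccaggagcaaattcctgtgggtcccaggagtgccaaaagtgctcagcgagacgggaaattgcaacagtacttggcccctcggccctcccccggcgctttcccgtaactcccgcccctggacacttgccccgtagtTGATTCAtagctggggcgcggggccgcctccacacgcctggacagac
Srgn: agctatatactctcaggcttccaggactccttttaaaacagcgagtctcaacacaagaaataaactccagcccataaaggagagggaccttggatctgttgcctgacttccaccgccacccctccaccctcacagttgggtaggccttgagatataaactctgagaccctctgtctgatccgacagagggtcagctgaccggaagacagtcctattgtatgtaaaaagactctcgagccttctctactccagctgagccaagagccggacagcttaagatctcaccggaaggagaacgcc
Both strands were searched in all 32851 RefSeq promoters of this length, of which 11 belong to the members, Srgn having a pair of starts. The STAT letters were present in 2 of the 11 member promoters and in 8.30% of all promoters. The AP-1 letters were present in 1 of the 11 and in 7.81% of all. The motifs overlap neither each other nor another match in these windows. These are matches of letters in a window and say nothing on binding.

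The libraries were checked before the members were compared. Recovered reads ranged between 21492789 and 24458589 in KI libraries and between 24816146 and 27716846 in controls. The transcript of the targeted locus, Gt(ROSA)26Sor, had 602.9, 604.7, 572.7 and 328.2 normalized counts in KI mice 1 to 4, against 82.9 to 93.9 in controls, so that each library matched its label at this locus. KI mouse 4 stood apart from the other KI mice. Its summed level of 8 markers of oligodendrocyte precursor cells (OPCs) was 20073, against 4973 to 6923 in the other KI mice and 27735 to 30455 in controls, and its Pdgfra level of 3269 normalized counts was close to that of controls, 2565 to 3087. KI mouse 3 and control mouse 4 held little choroid plexus RNA, with summed marker levels of 927.3 and 484.3, against 16112 to 36331 in the other KI mice and 64961 to 104556 in the other controls. Xist was high in 1 KI library and 2 control libraries. Of all 15123 genes, 3685 passed limma's test at an adjusted p of 0.05, or 24.4%, with 12.0% higher and 12.4% lower in KI mice.

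Of the 10 members, 1 rose in KI BS. Srgn was higher in all 4 KI mice than in any control mouse and passed the test. The other 9 did not pass, although 8 of them had a higher mean level in KI mice, and S1pr3 had a lower one. The median log2 fold change of the 10 was 0.60, against -0.004 over all genes tested, and 9 of 10 had a higher mean in KI mice, as did 49.7% of all genes. With 1 of 10 higher and 0 of 10 lower, the share that passed was below the 24.4% of all genes in either direction and near the 12.0% higher. At an unadjusted p under 0.05, 3 of 10 members differed in limma, against 39.0% of all genes. DESeq2 called 3 of 10, Srgn, Serpina3n and Vim, against 29.2% of all genes, and edgeR called 1 of 10, against 24.0%. These shares of members were near or below those of all genes.

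**Figure D1:**
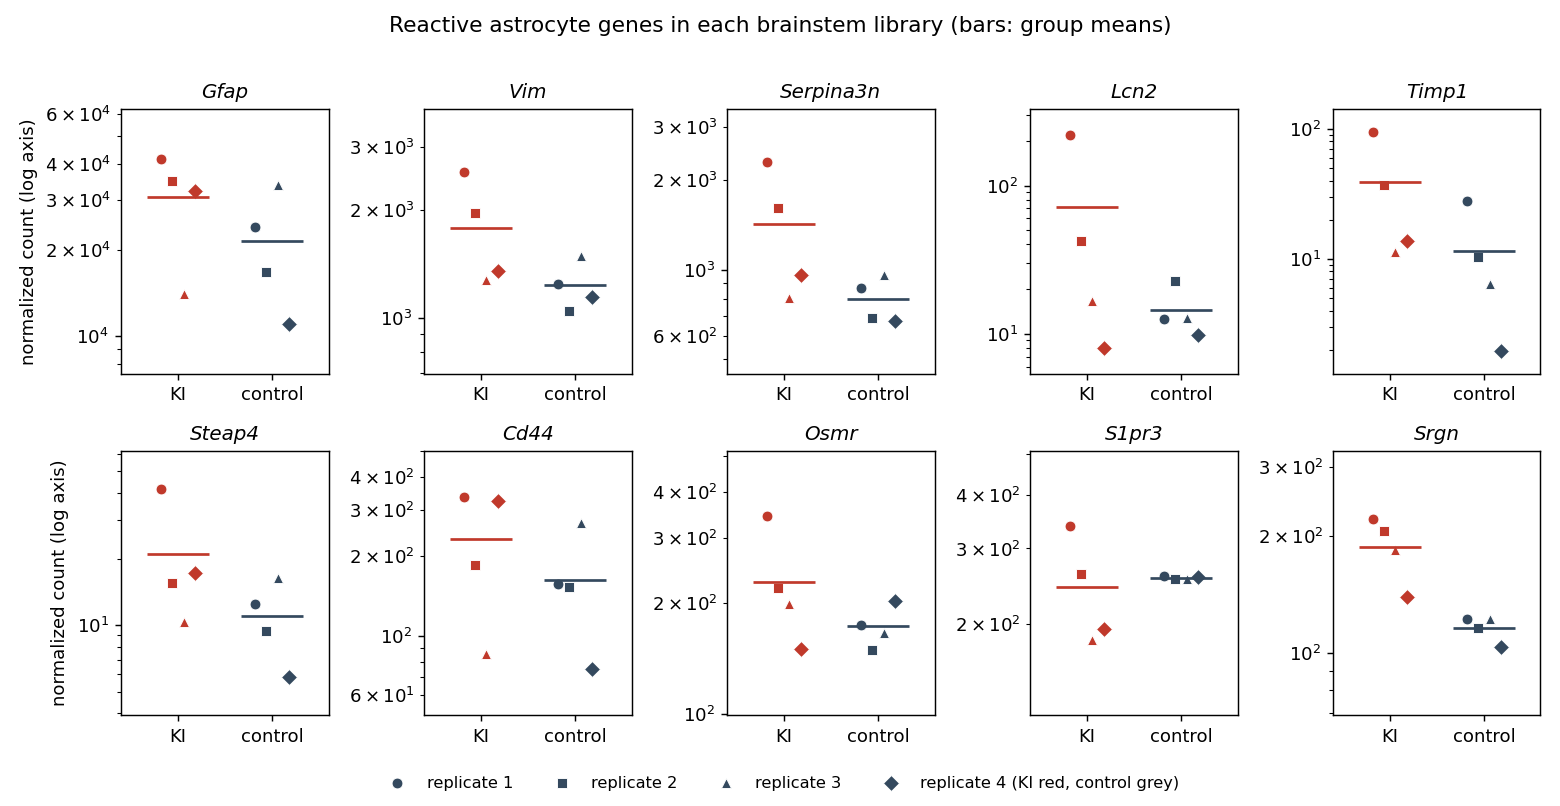
Normalized counts (log axis) of the 10 reactive astrocyte genes in each BS library, 4 KI libraries left in red and 4 control libraries right in grey, with the marker shape giving the replicate and the bar the group mean. KI replicate 1 is the highest point in each panel, and Srgn is the panel in which every KI library lies above every control.

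Serglycin, the product of Srgn (Ensembl gene ENSMUSG00000020077, GRCm38, chr10:62493833-62527451, minus strand), is the core protein of an intracellular proteoglycan of secretory granules, best known in leukocytes and also expressed by endothelial cells. Srgn had 220.7, 205.3, 184.0 and 138.9 normalized counts in KI mice 1 to 4, against 122.1, 115.6, 122.2 and 103.5 in control mice 1 to 4. The lowest KI value, in mouse 4, lay above the highest control value. Groups that do not overlap in this direction were found for 12.7% of all genes. Means were 187.2 ± 35.6 in KI and 115.9 ± 8.80 in control mice (SD, n = 4 each). The log2 fold change on log2(normalized count + 1) was 0.67 ± 0.15 (SE, limma adjusted p = 0.0172). The call held in 16 of 20 alternatives. Among the other alternatives, it was lost without KI replicate 2 (limma adjusted p = 0.0591), without control replicate 2 (adjusted p = 0.0561) and without the pair of libraries low in choroid plexus RNA (adjusted p = 0.0614). Srgn is the one member whose KI libraries spread by no more than 1.59-fold.

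The filament genes are the classical signs of astrocyte reaction. Gfap (ENSMUSG00000020932, chr11:102887336-102900912, minus strand), whose promoter above carries the STAT letters, had 41547, 34983, 14053 and 32230 normalized counts in KI mice 1 to 4, against 24031, 16769, 33904 and 11059 in control mice 1 to 4. KI mouse 3 lay below 3 of the 4 controls, and control mouse 3 lay above 2 of the 4 KI mice. The spread within a group was 2.96-fold in KI mice and 3.07-fold in controls. The log2 fold change was 0.53 ± 0.40 (SE, limma adjusted p = 0.359). Vim (ENSMUSG00000026728, chr2:13573927-13582826, plus strand), which encodes vimentin, had 2549, 1956, 1275 and 1351 normalized counts in KI mice, against 1239, 1045, 1491 and 1144 in controls. Control mouse 3 alone overlapped the KI range, and the difference of 0.49 ± 0.21 did not pass in limma (adjusted p = 0.122) but passed in DESeq2 (adjusted p = 0.0492). Gfap was the most abundant member per length of exon, with a mean of 7279 normalized counts per kb in KI and 5083 in control mice. The next was Serpina3n, with 687.2 and 385.8 per kb. The other filament and cross-linker genes measured, nestin, synemin, desmin and plectin, did not pass either. By limma 0 of the 6 genes of that list changed, with 1 at an unadjusted p under 0.05, against 24.4% and 39.0% of all genes.

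Among the secreted members, Timp1 and Lcn2 had the largest fold changes of all 10 members and the largest spread among KI mice. Serpina3n (ENSMUSG00000021091, chr12:104406729-104414329, plus strand) encodes a serine protease inhibitor of a tandem family with near-identical copies, so that its count is less certain than the others. Its level was 2302, 1608, 803.3 and 960.6 normalized counts in KI mice 1 to 4, against 867.4, 686.3, 960.3 and 670.9 in control mice 1 to 4. KI mice 1 and 2 were clearly high, KI mouse 4 equalled the highest control and KI mouse 3 lay below it. The log2 fold change was 0.72 ± 0.30 (SE, limma adjusted p = 0.107). It passed in DESeq2 (adjusted p = 0.0193) and in limma without KI replicate 3 (adjusted p = 0.0466).

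Lipocalin 2, encoded by Lcn2 (ENSMUSG00000026822, chr2:32384633-32388252, minus strand), binds iron-carrying siderophores and is released by reactive astrocytes and neutrophils. Lcn2 had 218.7, 42.4, 16.5 and 8.03 normalized counts in KI mice 1 to 4, against 12.5, 22.6, 12.8 and 9.77 in controls. KI mouse 1 was 5.16-fold above the next library, and KI mouse 4, with 7 reads, was the lowest of all. The log2 fold change of 1.25 ± 0.84 did not pass (limma adjusted p = 0.304), and it was 0.37 without KI replicate 1. Timp1 (ENSMUSG00000001131, chrX:20870166-20874735, plus strand) encodes an inhibitor of matrix metalloproteinases. It had 94.6, 36.8, 11.4 and 13.8 normalized counts in KI mice, against 27.6, 10.3, 6.38 and 1.95 in controls, the lowest of which rests on 2 reads. KI mice 1 and 2 were above every control, while KI mice 3 and 4 were below control mouse 1. Its log2 fold change of 1.64 ± 0.80 was the largest of the members and did not pass (limma adjusted p = 0.161).

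Receptors and a membrane enzyme formed the next set, and none of the 4 passed in limma. Cd44 (ENSMUSG00000005087, chr2:102811141-102901665, minus strand), the receptor for hyaluronan and osteopontin, had 334.0, 185.2, 85.8 and 323.6 normalized counts in KI mice 1 to 4, against 156.9, 153.2, 266.3 and 75.2 in control mice 1 to 4. Its low values were in KI mouse 3 and control mouse 4, as for Gfap, and the log2 fold change of 0.46 ± 0.48 did not pass (limma adjusted p = 0.519). Steap4 (ENSMUSG00000012428, chr5:7960457-7982213, plus strand), a metalloreductase, was the other member with the STAT letters. Steap4 had 41.4, 15.6, 10.3 and 17.2 normalized counts in KI mice, against 12.5, 9.40, 16.4 and 5.86 in controls. KI mouse 1 was high and the other KI mice lay within or near the controls, with a log2 fold change of 0.78 ± 0.45 (SE, limma adjusted p = 0.230).

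Osmr (ENSMUSG00000022146, chr15:6813577-6874969, minus strand) encodes the subunit that joins gp130 in the receptor for oncostatin M. It had 344.8, 218.7, 198.5 and 150.3 normalized counts in KI mice 1 to 4, against 173.8, 148.5, 166.0 and 202.1 in control mice 1 to 4. KI mice 1 and 2 were above all controls and KI mice 3 and 4 were not, and the log2 fold change of 0.34 ± 0.23 did not pass (limma adjusted p = 0.295). S1pr3 (ENSMUSG00000067586, chr13:51408639-51422797, plus strand), a receptor for sphingosine-1-phosphate, had 338.9, 261.1, 183.0 and 194.0 normalized counts in KI mice, against 258.5, 254.8, 254.4 and 256.8 in controls. The 4 controls were nearly equal, whereas 2 KI mice lay above them and 2 below. Its log2 fold change was -0.11 ± 0.18 (SE, limma adjusted p = 0.680), and the sign turned without KI replicate 3, to 0.010, and without both libraries low in choroid plexus RNA, to 0.012. The exons of S1pr3 share 45 bases with Gm32834 on the opposite strand, or 1.01% of its exon bases.

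**Figure D2:**
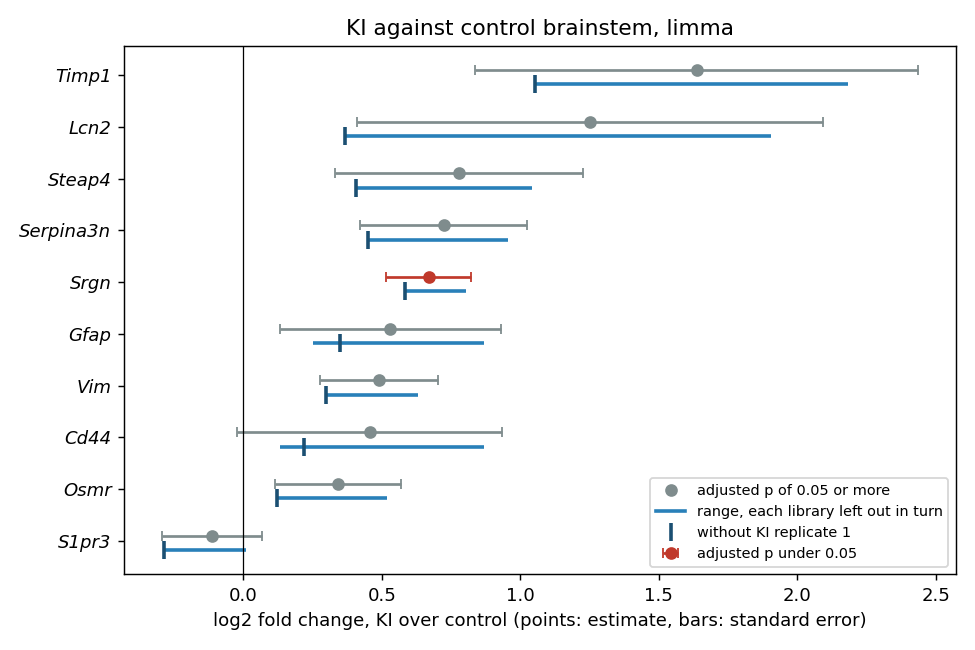
Log2 fold change of each member, KI over control, with its standard error (points and bars, limma, n = 4 each) and the range when each library was left out in turn (blue line, with a tick for KI replicate 1 left out). Srgn, in red, is the member that passed, and its range is the narrowest.

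KI mouse 1 gave the highest of the 8 libraries in 10 of 10 members, as in 14.5% of all genes. The ratio of KI mouse 1 to the next library was smallest for Cd44, 1.03, and larger for Lcn2, Timp1 and Steap4, 5.16, 2.57 and 2.40. On the log2 scale, KI mouse 2 was above the mean of the 8 libraries in 10 of 10 members as well. KI mice 3 and 4 were above it in 2 and 3 members, control mouse 3 in 5, and the other controls in 2 or 3. Without KI mouse 1, the mean of the other 3 KI mice over the control mean was 1.52 for Srgn, 1.78 for Timp1, 1.55 for Lcn2, 1.41 for Serpina3n and 1.26 for Gfap. It was 0.831 for S1pr3. The median log2 fold change of the members was then 0.36, and 1 of 10, Srgn, still passed (limma adjusted p = 0.0448), against 14.6% of all genes.

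At the low end, KI mouse 3 was the lowest KI library in 7 members, as in 4234 of all 15123 genes. Control mouse 4 was the lowest control in 7 members, as in 4622 of all genes. Both were true in 5 members, as in 14.6% of all genes. These are the pair of libraries low in choroid plexus RNA. Without them, 0 of 10 members passed in limma, against 12.2% of all genes. At an unadjusted p under 0.05, 4 of 10 members differed, against 34.5% of all genes. The log2 fold change of Srgn was then 0.62 and the member median 0.61, about as large as with all libraries. Leaving out KI mouse 4, whose OPC markers lay between those of the other KI mice and the controls, left 1 of 10 passed. This was again Srgn, with an adjusted p of 0.00136 by limma, while the share of all genes that passed rose to 35.0%.

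Other reactive genes were measured from the pan-reactive, A1 and A2 lists, which hold 37 genes with the members included. Of the 27 that are not members, 25 were tested and 0 passed in limma, against 24.4% of all genes. At an unadjusted p under 0.05 there was 1, against 39.0% of all genes. Ptx3 passed by both edgeR and DESeq2. The median log2 fold change of the 25 was 0.22. Without KI replicate 1, 24 of them were tested and the median was -0.009. By list, 0 of 13 pan-reactive genes, 1 of 11 tested A1 genes (Srgn) and 0 of 11 tested A2 genes passed, against the same 24.4%. Ptx3, an A2 gene that encodes the soluble pattern-recognition protein pentraxin 3, had 161.6, 33.5, 29.0 and 18.4 normalized counts in KI mice 1 to 4, against 9.81, 9.40, 11.9 and 17.6 in control mice 1 to 4. All KI mice lay above all controls, by a narrow margin between KI mouse 4 and control mouse 4. Its log2 fold change was 1.73 ± 0.58 (SE, limma adjusted p = 0.0580; edgeR adjusted p = 0.0401). KI mouse 1 was the highest library in 13 of 13 pan-reactive, 6 of 11 A1 and 7 of 11 A2 genes.

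General astrocyte markers were read beside the reactive genes. Of 16 such markers, 12 rose and 0 fell in KI BS (limma), against 12.0% and 12.4% of all genes. Their median log2 fold change was 0.70. When each library was left out in turn, the count was 1 without KI replicate 2 or without control replicate 2 (Ppp1r3c). The shares of all genes called were then 6.63% and 5.88%. In each of these fits, 13 of the 16 markers had an unadjusted p under 0.05. The count was 7 without KI replicate 1 or control replicate 3, 8 without KI replicate 3 or control replicate 1, and 14 at most. The median with each library left out stayed between 0.58 and 0.85. DESeq2 called 15 of the 16, against 29.2% of all genes. With a block for replicate number, limma called 0 of the 16 and 0 of all genes. Adjusting for Xist left 9 called, against 14.6% of all genes, and lowered the median to 0.54. The least abundant of the 16, Sox9, averaged 684.4 normalized counts in KI and 479.8 in control mice. Ppp1r3c, a regulator of glycogen storage, had 2417, 2622, 2732 and 1757 normalized counts in KI mice, against 1497, 1265, 1430 and 1288 in controls, a log2 fold change of 0.78 ± 0.13 (SE, limma adjusted p = 0.00967). Cldn10 and Gja1, the gene of connexin 43, rose by 0.89 and 0.70 (limma adjusted p = 0.0136 and 0.0140), and both lost the call without KI replicate 2 or control replicate 2. KI mouse 1 was the highest library in 4 of the 16 markers, and KI mouse 3, low in 7 members, had the highest summed marker level, 562648. The sum was 316611 to 562648 in KI and 242599 to 291482 in control mice. Their part in the member levels was not tested.

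**Figure D3:**
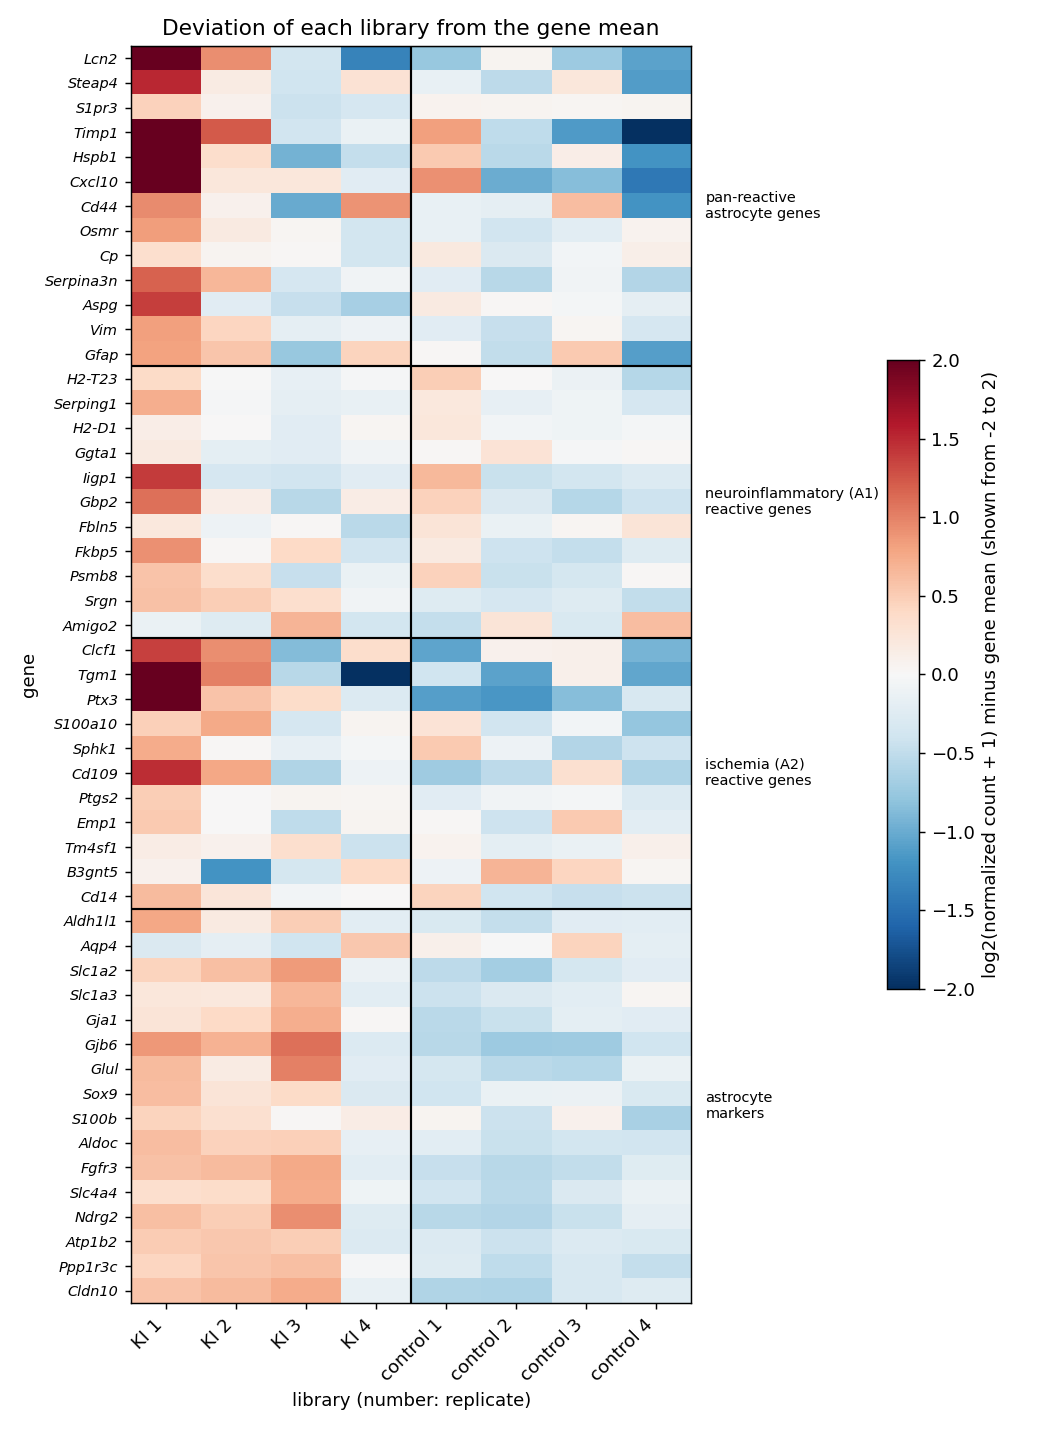
Deviation of each library from the gene mean, in log2(normalized count + 1), for the tested pan-reactive, A1 and A2 genes and 16 astrocyte markers (rows), with KI replicates 1 to 4 left and control replicates 1 to 4 right. Most reactive genes are highest in KI replicate 1, while most astrocyte markers, though not Aqp4, are high in KI replicates 1 to 3.

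Genes upstream of the members were examined next. Of the gp130 and STAT3 route, which runs from the cytokines to Socs3, 12 of 17 genes were tested and 0 passed in limma, with 0 at an unadjusted p under 0.05. Of all genes, 24.4% and 39.0% did. The smallest p of this route was that of Il6st, the gene of gp130, with a log2 fold change of -0.27 ± 0.12 (limma adjusted p = 0.141). Of the inflammatory inducers, 5 of 7 were tested and 0 passed, with 0 at an unadjusted p under 0.05. C1qb, a subunit of complement C1q, had the smallest p, with a log2 fold change of 0.20 ± 0.16 (limma adjusted p = 0.387). Among 10 tested NF-kappaB components and targets 1 fell, against 12.4% of all genes. Rela, the p65 subunit of NF-kappaB, had 524.1, 474.1, 436.3 and 515.3 normalized counts in KI mice, against 673.0, 603.6, 673.9 and 572.2 in controls, a log2 fold change of -0.37 ± 0.09 (SE, limma adjusted p = 0.0197). The call was lost without KI replicate 2 (adjusted p = 0.0628), without control replicate 1, 2 or 3 (0.0507, 0.0561 and 0.0575) and in the libraries low in Xist (0.103).

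Partners of the members, the enzymes, ligands and receptors that act with them, were tested in 15 cases. By limma 1 rose, 4 fell and 10 did not pass, against 24.4% of all genes called. The number that fell was 2 without KI replicate 2 and 1 without control replicate 2. Timp4, which like Timp1 inhibits metalloproteinases, had 7384, 6192, 6665 and 3819 normalized counts in KI mice 1 to 4, against 2648, 2464, 2782 and 3009 in control mice 1 to 4. Every KI mouse exceeded every control, and the log2 fold change was 1.10 ± 0.18 (SE, limma adjusted p = 0.00912). Mmp2, a metalloproteinase that TIMPs inhibit, had 123.1, 112.7, 79.6 and 198.5 normalized counts in KI mice, against 274.6, 279.2, 326.5 and 204.1 in controls, and fell by 1.13 ± 0.26 on the log2 scale (limma adjusted p = 0.0172), a call lost without KI replicate 2 (adjusted p = 0.0567) or control replicate 2 (0.0571). Slc22a17, a receptor for lipocalin 2, fell by 0.46 (adjusted p = 0.0115). Sphk2, a kinase that makes sphingosine-1-phosphate, fell by 0.44 (adjusted p = 0.0139, and 0.0509 without control replicate 2). The receptor gene S1pr2, named to complete the count after its values were seen, fell by 0.63 (adjusted p = 0.0357). With a library left out, S1pr2 passed only without KI replicate 4. Its call was also lost with no filter, with the Xist covariate, in the libraries low in Xist and without the libraries low in choroid plexus RNA.

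Markers of other cell types that can express the members were read beside them. Microglia, which express Srgn and complement, had 0 of 12 markers changed in limma, against 24.4% of all genes. At an unadjusted p under 0.05 there was 1, against 39.0% of all genes. The summed microglia levels were 6687 to 7901 in KI and 6752 to 8123 in control mice. Itgam had the smallest p of the microglia markers, with a log2 fold change of -0.23 (limma adjusted p = 0.0844). Of 10 neutrophil and monocyte markers 3 were tested and 2 rose, against 12.0% of all genes. These were S100a9, by 1.64, and S100a8, by 2.11 (limma adjusted p = 0.0263 and 0.0277). Neither passed without KI replicate 1 or without control replicate 1, 2 or 3, nor without the libraries low in choroid plexus RNA. Their list summed to 157.6, 447.4, 159.2 and 83.8 normalized counts in KI mice 1 to 4, against 65.1, 96.8, 55.6 and 70.3 in control mice 1 to 4. It was highest in KI mouse 2, whereas Lcn2, Srgn and the other members were highest in KI mouse 1, and its part in the levels of Srgn and Lcn2 was not tested. Endothelial cells express Srgn too. Of 12 endothelial markers, Kdr and Tie1 fell in limma and the rest did not pass, against 12.4% of all genes lower. The log2 fold change was positive for 5 of the 12 and negative for 7. In DESeq2 and in edgeR 1 of the 12 rose, and in limma 3 rose without KI replicate 4. Neither Kdr nor Tie1 passed without KI replicate 1 or 2 or control replicate 2. The summed level of the 12 was 8722 to 11912 in KI and 9551 to 10847 in control mice.

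**Figure D4:**
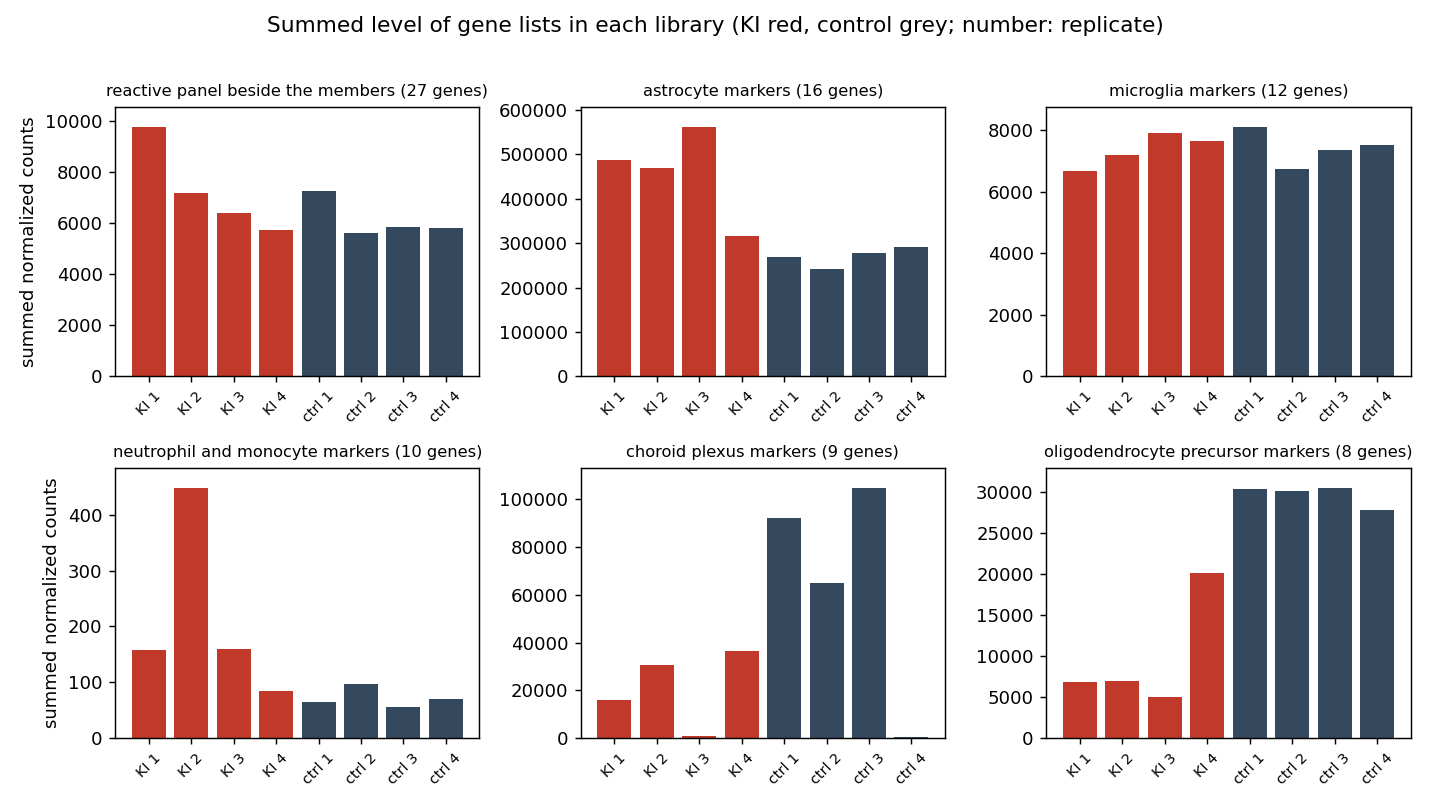
Summed normalized counts of 6 gene lists in each library, 4 KI libraries left in red and 4 control libraries right in grey. The 27 reactive genes that are not members are highest in KI replicate 1 (9767) and the neutrophil and monocyte markers in KI replicate 2 (447.4), whereas microglia markers lie between 6687 and 7901 in KI and between 6752 and 8123 in control libraries.

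The remaining tissue lists gave the setting in which the members were read. OPC markers fell in 8 of 8 genes and myelin genes in 8 of 10 by limma, against 12.4% of all genes. In DESeq2 these counts were 6 and 5, and in edgeR 5 and 5. Without KI replicate 2 the limma counts were 2 and 0, with 412 of all 15107 genes lower. Without control replicate 2 they were 2 and 1, with 344 of all 15112 genes lower. Of 10 meningeal fibroblast markers 4 fell, Igf2, Col3a1 and Col1a1 among them, and 1 did without KI replicate 2 or control replicate 2. Of the 10 pan-neuronal markers Snap25 and Map2 rose and Syn1 fell, and none passed without KI replicate 2 or control replicate 2. In limma 0 of 8 mural, 0 of 9 choroid plexus and 0 of 8 ependymal markers passed, with 1, 0 and 1 at an unadjusted p under 0.05. The smallest p of each was that of Vtn, Sostdc1 and Rsph1 (adjusted p = 0.0506, 0.201 and 0.117). Without control replicate 4, 5 choroid plexus and 4 ependymal markers were lower. Without both libraries low in choroid plexus RNA, a pair picked by the marker Ttr itself, these counts were 8 and 2.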

How the data were processed

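A single deposited table held the BS RNA-seq values of 4 KI mice and 4 control mice. Groups and replicate numbers came from the sample labels. Per the submitters' notes and the methods, the authors used STAR 2.7 for alignment to mm10 and HTSeq for unstranded counts per gene, which were divided by DESeq2 size factors. The deposited signal is this normalized count. Undoing the division gave whole reads for 100% of values within 0.01 reads. The table had 24709 lines, of which 628 repeat a gene and were dropped. The authors' fold changes, statistics and p-values were not used.

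The 15123 genes averaging 10 or more normalized counts were compared with limma 3.58.1 in R 4.3.3 on log2(normalized count + 1), with a variance trend and Benjamini-Hochberg adjustment at 0.05. This scale understates changes of low genes. The steps were tested on simulated counts. The p-values weigh the difference between groups against the spread between these mice. Alternatives used DESeq2 1.42.0, edgeR 4.0.16 or limma-voom on recovered reads, TMM or upper-quartile scaling, no filter, a replicate block, an Xist covariate, pseudocounts of 10 and 0.1, libraries low in Xist alone, libraries low in Ttr left out, and each library left out in turn.

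The members and the 19 other gene lists were chosen with earlier results of these data known. All members are named, and of each other list at most 3 genes per direction that passed with the smallest p, or the gene with the smallest p where none did. Coordinates are those of GENCODE for GRCm38, matched by Ensembl ID.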

Additional observations from a re-analysis of the deposited data

Results flagged for a closer look

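Of 20 groups of 4 libraries, 2 for each member, 1 had a library far from the others. Lcn2 in KI mouse 1 had 218.7 normalized counts, against 42.4 in the next KI library, and that gap was 0.837 of the range of the group, above Dixon's critical value for 4 values. Chance gives about 1 such group in 20 if values are normally distributed, which was not tested. The gap was taken on normalized counts. On the log2 scale, Lcn2 deviated from its mean by 3.27, 0.93, -0.37 and -1.33 in KI mice 1 to 4, and the gap was a smaller part of the range.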

How the results depend on the processing

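The 9 members that did not pass kept this in every alternative except Vim in DESeq2, Serpina3n in DESeq2 and Serpina3n without KI replicate 3. The direction held in all 20 alternatives for all members but S1pr3, whose log2 fold change of -0.11 was 0.0115 without the libraries low in Ttr and ranged between -0.285 (without KI replicate 1) and 0.0102 (without KI replicate 3) with each library left out. Srgn ranged between 0.56 and 0.85. Its limma adjusted p was 0.0559 with the replicate block. The number of members that passed was 1, 3 in DESeq2, 0 with the replicate block, 0 without the libraries low in Ttr and 0 to 2 with each library left out, being 0 without KI replicate 2 or control replicate 2 and 2 without KI replicate 3. Of the 35 tested reactive genes, 1 passed, 4 in DESeq2, 2 in edgeR, 2 with log2 Xist as a covariate, 0 with the replicate block, 0 without the libraries low in Ttr and 0 to 3 with each library left out. Over all genes, 3685 passed, 2210 with log2 Xist as a covariate, 1910 in libraries low in Xist alone, 1843 without the libraries low in Ttr and 888 to 5292 with each library left out. With the replicate block 0 of all genes passed in limma, with 5087 at an unadjusted p under 0.05. The numbers do not pair the mice. Same-numbered mice had correlations of 0.256, -0.117, -0.463 and -0.362 between their deviations from the group means, and 1 of 4 pairs matched best. The cause of these shifts was not tested. Lcn2, Timp1 and Steap4 had as few as 7, 2 and 6 reads in a library. The part of depth in their spread was not tested.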

Other observations

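Genes outside the members that were far higher in KI mouse 1 were picked after their values were seen. Tgm1, which encodes transglutaminase 1, had 139.9, 11.2, 3.10 and 0 normalized counts in KI mice 1 to 4, against 3.57, 1.88, 5.47 and 1.95 in control mice 1 to 4. The chemokine gene Ccl2, under the minimum mean and not tested, had 54.2, 10.0, 1.03 and 0 in KI mice, against 2.67, 1.88, 0 and 2.93 in controls. Hspb1, a small heat shock protein gene of the pan-reactive list, had 700.5, 198.6, 80.6 and 111.3 in KI mice, against 224.6, 107.2, 171.4 and 67.4 in controls. Socs3, a target of STAT3 that feeds back on it, had 84.7 normalized counts in KI mouse 1, 22.7 to 32.4 in the other KI mice and 21.0 to 29.3 in controls.

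The cytokine genes Il6 and Tnf were at or near 0. Il6 had at most 4.59 normalized counts in KI and 1.82 in control mice, and Tnf at most 2.96 in KI and 1.88 in control mice.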
